A study of Mus musculus with 17 samples.

Results

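The proteasome genes of mouse brown fat were followed through 4 h of cold in wild-type and Noct knockout animals. The set was chosen by name: gene symbols of the proteasome form (Psma, Psmb, Psmc, Psmd, Psme, Psmf or Psmg followed by a number) together with Nfe2l1, Ddi2 and Pomp, with a mean count of at least 10 over the 17 libraries. Of the 21982 genes in the count table, 51 had this form and 49 reached the minimum, and all 49 were tested. Psma8 and Psmb11, whose mean counts were 0.588 and 0.176, fell below it.

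Messenger RNA of brown adipose tissue, the fat that burns fuel to make heat, had been sequenced from 17 C57BL/6 mice, 1 library per mouse. Wild types (labelled Noc+/+) and knockouts (Noc-/-) were littermates, housed singly without food for 4 h at 22 °C or at 6 °C. The wild types comprised 4 animals kept at 22 °C, of which 3 were female, and 5 kept at 6 °C, of which 4 were female. The knockouts comprised 4 animals at each temperature, of which 1 in each group was female. Labelled ages, given without a unit, ran from 11.14 to 23.57 in both 22 °C groups, from 11.14 to 23.0 in wild types at 6 °C and from 11.14 to 17.0 in knockouts at 6 °C; the series text gives an age range in weeks that ends below the highest of these labels. The extent of the Noct deletion is not stated in the labels.

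The proteasome is the protease that degrades proteins tagged with ubiquitin. Its 20S core is a stack of rings of alpha subunits, which gate the entry, and beta subunits, which carry the cutting sites, and its 19S cap recognises tagged proteins, unfolds them with a ring of ATPases and removes the tag. Nfe2l1 encodes the membrane-bound transcription factor NRF1, which the protease encoded by Ddi2 cleaves and which raises transcription of proteasome genes when proteasome capacity falls short; in brown fat it is known to be needed for proteasome function in adaptation to cold.

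Library totals ran from 18410748 to 47598200 counts, and mitochondrially encoded genes took 43.4 to 57.3% of each. Noct, the targeted gene, stood at 91.5 to 176 CPM (counts scaled to the library total after TMM) in wild types at 22 °C and 238 to 457 CPM at 6 °C, against 3.37 to 34.2 and 18.2 to 27.2 CPM in knockouts, with no knockout library reaching the lowest wild type. The brown fat marker Ucp1, the uncoupling protein, had 2488 to 4548 RPKM (read counts scaled to gene length and library total) over all libraries. The 13 brown fat markers summed to 11224 to 12603 CPM in wild types at 22 °C and 15364 to 19590 CPM at 6 °C. In knockouts they summed to 11076 to 14723 and 14953 to 19299 CPM. Single markers went both ways: in wild types 5 of 13 rose and 3 fell, against 14.3 and 13.3% of all genes. Their log2 fold changes ran from -0.98 to 2.86 (median 0.09). In knockouts 4 rose and 1 fell, against 11.6 and 10.0% of all genes. Skeletal muscle markers varied widely within groups, from 62.2 to 1266 CPM, and of its 15 genes 0 were called in either cold response, and 0 had an unadjusted p below 0.05 in edgeR or DESeq2. The part of these lists in the results below was not tested.

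Of the 49 genes, 42 had a promoter in the RefSeq table of GRCm38.p6, with 49 windows of 300 bases. The 6 stretches are shown, from 250 bases before to 30 bases after the annotated start and on the strand of the gene, because they belong to the genes with the largest cold changes in their roles (Psma1, Psmc2, Psmd12, Psme4 and Psmb9) and to a catalytic subunit that did not pass the test and whose window holds TGACNNNGC (Psmb6). Capitals mark TGACNNNGC, the core bound by NRF1-type factors with small Maf partners, or CCAAT, the box of NF-Y, in either orientation, a match on the other strand being read as its reverse complement. The Psma1 stretch is chr7:114276087-114276366 on the minus strand, Psmc2 is chr5:21785025-21785304 on the plus strand and Psmd12 is chr11:107479278-107479557 on the plus strand. Psme4 is chr11:30771525-30771804 and Psmb6 chr11:70525107-70525386, both on the plus strand, and Psmb9 is chr17:34187301-34187580 on the minus strand.

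Psma1: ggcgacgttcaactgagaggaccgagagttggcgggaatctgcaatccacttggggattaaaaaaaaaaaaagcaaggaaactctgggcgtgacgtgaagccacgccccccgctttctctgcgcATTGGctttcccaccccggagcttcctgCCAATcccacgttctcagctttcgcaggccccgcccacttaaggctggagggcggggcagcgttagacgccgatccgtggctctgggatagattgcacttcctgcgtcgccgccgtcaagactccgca
Psmc2: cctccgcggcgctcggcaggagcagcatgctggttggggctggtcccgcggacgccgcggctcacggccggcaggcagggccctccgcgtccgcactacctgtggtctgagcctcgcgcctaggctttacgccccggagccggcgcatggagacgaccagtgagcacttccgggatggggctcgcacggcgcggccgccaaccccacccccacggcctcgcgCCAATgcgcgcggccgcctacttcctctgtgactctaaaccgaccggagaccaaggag
Psmd12: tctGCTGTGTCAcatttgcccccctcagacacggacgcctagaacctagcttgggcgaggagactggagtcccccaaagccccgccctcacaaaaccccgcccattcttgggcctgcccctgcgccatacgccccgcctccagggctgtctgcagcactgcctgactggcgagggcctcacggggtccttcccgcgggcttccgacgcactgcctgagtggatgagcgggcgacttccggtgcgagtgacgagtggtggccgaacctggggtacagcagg
Psme4: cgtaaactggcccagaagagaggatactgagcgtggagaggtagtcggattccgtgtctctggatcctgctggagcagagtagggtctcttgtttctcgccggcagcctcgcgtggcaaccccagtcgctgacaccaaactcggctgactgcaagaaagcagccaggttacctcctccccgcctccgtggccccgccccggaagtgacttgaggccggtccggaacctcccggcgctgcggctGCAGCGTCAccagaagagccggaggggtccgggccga
Psmb6: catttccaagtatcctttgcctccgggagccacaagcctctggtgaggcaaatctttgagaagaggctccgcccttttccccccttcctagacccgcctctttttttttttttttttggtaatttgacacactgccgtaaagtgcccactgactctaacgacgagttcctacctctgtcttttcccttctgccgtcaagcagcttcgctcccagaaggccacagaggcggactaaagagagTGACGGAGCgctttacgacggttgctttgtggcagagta
Psmb9: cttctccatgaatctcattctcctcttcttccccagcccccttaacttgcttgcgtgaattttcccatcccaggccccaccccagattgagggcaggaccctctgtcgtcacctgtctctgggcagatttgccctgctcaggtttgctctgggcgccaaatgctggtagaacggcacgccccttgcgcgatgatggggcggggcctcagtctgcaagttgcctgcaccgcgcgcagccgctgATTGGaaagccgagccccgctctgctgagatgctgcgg

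TGACNNNGC was present on either strand in 6 of the 42 matched genes (14.3%), namely Psmb5, Psmb6, Psmc6, Psmd12, Psmd9 and Psme4, and in 3781 of all 27025 genes of the table (14%). In Psmd12 the match lay at -247 from the start, in Psme4 at -7 and in Psmb6 at -9. Among the genes that rose in the cold in wild type it was present in 3 of 20 (15.0%), among those not called in 2 of 18 (11.1%) and among those that fell in 1 of 4 (25.0%). CCAAT was present in 14 of 42 (33.3%) against 41.1% of all genes, with 5 of the 7 alpha subunits (Psma1, Psma2, Psma3, Psma6 and Psma7) among them. Neither the cAMP response element TGACGTCA (2.03% of all genes) nor the heat shock element (0.662%), both also searched on both strands, was found in any of the 42. These are matches of letters within the windows and say nothing of binding.

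Levels were compared between genes per length, in the deposited RPKM. These values depend on the gene length used, which was not checked against the transcripts present. Psma3 and Psma6, for example, have 3894 and 1234 exonic bases in GENCODE. Their mean levels in wild types at 22 °C were 30.2 and 67.0 CPM, closer together than their RPKM. For the 14 subunits of the 20S core and the 17 of the 19S cap, means were taken over all libraries together. Mean RPKM ran from 9.03 (Psma3) to 65.3 (Psma6) in the alpha ring and from 10.9 (Psmb3) to 47.9 (Psmb2) in the standard beta ring. It ran from 10.7 (Psmc2) to 49.7 (Psmc6) among the ATPases and from 9.47 (Psmd13) to 43.9 (Psmd8) among the other cap subunits. The immunoproteasome subunits, which replace the standard catalytic beta subunits in immune cells and under interferon, were lower, at 0.483 RPKM for Psmb9, 1.28 for Psmb8 and 1.72 for Psmb10. Assembly chaperones lay from 0.643 (Psmg3) to 7.22 RPKM (Psmg1) for the core and from 0.885 (Psmd9) to 5.52 RPKM (Psmd10) for the cap. Among the activators and regulators, Psme3 had 28.5 RPKM and Psmf1 1.53 RPKM. Nfe2l1 itself was among the highest of the set at 57.4 RPKM, and Ddi2 stood at 5.24 RPKM.

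**Figure D1:**
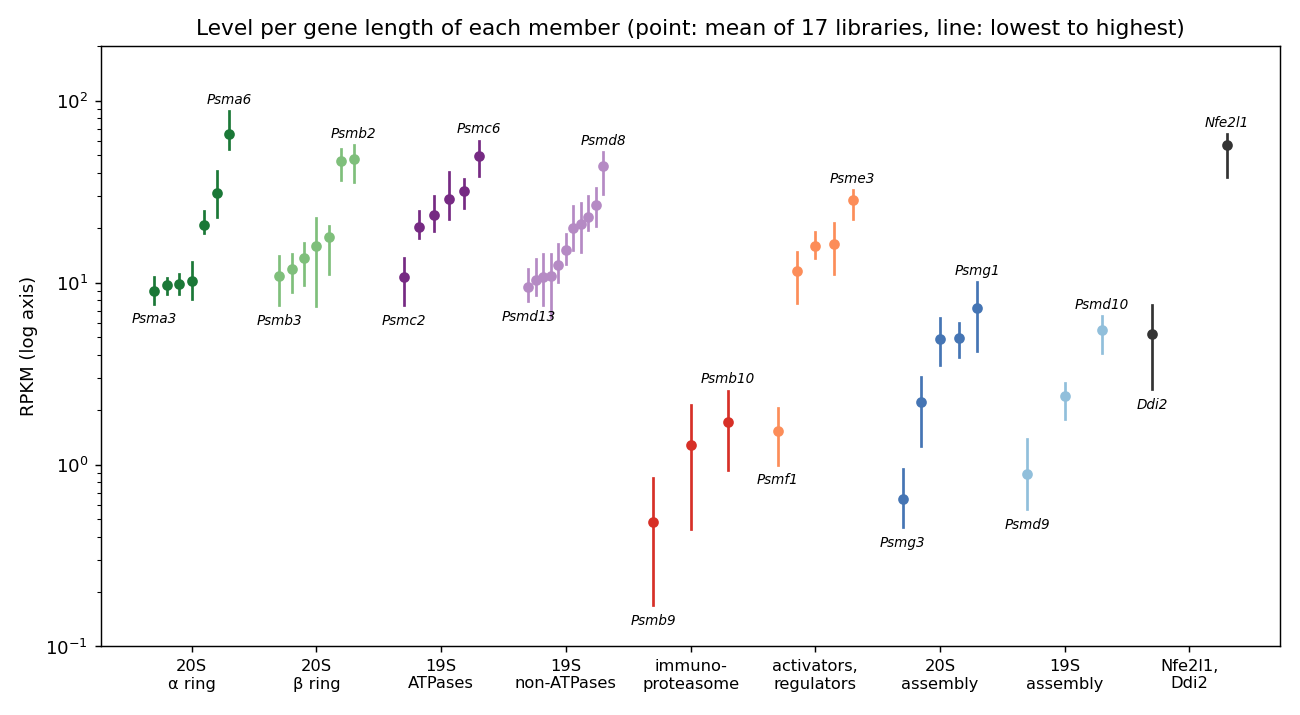
Level per gene length (RPKM, log axis) of the 49 genes by role; points are means over 17 libraries and lines run from the lowest to the highest library. Means of the core and cap subunits lie between 9.03 and 65.3 RPKM, and those of the immunoproteasome subunits between 0.483 and 1.72 RPKM.

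In wild types, most subunits of the proteasome were higher after 4 h at 6 °C. With p-values adjusted over all 12486 genes that entered the test and a threshold of 0.05, 22 of the 49 rose and 5 fell; of all tested genes 27.6% passed, 14.3% rising and 13.3% falling. The median log2 fold change was 0.26 over the 49 and -0.03 over all genes, and 38 of the 49 were positive. Without wild-type 22 °C replicate 2, the deepest library, 21 rose and 3 fell. Leaving out single libraries gave 19 to 26 rises and 2 to 6 falls, with 2 falls without wild-type 22 °C replicate 3 or 4, wild-type 6 °C replicate 1, 2 or 3, or knockout 22 °C replicate 2 or 3. There were 3 falls without wild-type 22 °C replicate 1, wild-type 6 °C replicate 5, knockout 22 °C replicate 1 or knockout 6 °C replicate 1 or 2. When libraries were scaled to their total count instead of by TMM, 11 rose and 8 fell, so that 57.9% of the calls were rises against 81.5%; that scaling moved the median of all genes to -0.23 and of the 49 to 0.06, which left the 49 higher than all genes by 0.29 either way. No member passed a test against a fold of 1.5 (edgeR glmTreat), although 35 had an unadjusted p below 0.05 in the test without a minimum fold (36 by DESeq2).

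The 49 genes were also summed within each library. Of the counts outside the mitochondrial genome, they took 0.427 to 0.449% in the wild types at 22 °C and 0.488 to 0.495% in those at 6 °C, without overlap. Of all counts, which include the mitochondrial ones, they took 0.221 to 0.243% and 0.237 to 0.277%, with overlap.

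The 19S ATPases, the ring of motors that unfolds substrates, all 6 rose in wild types, with log2 fold changes from 0.27 (Psmc3) to 0.68 (Psmc2). Psmc2 had 33.2, 46.2, 41.5 and 44.7 CPM at 22 °C and 62.2, 70.1, 72.6, 59.8 and 64.4 CPM at 6 °C. Every cold library lay above every library at 22 °C, and Psmc2 rose by 0.68 ± 0.11 log2 (1.60-fold, adjusted p = 0.00043). Psmc4 had 49.6, 54.2, 48.7 and 46.5 CPM at 22 °C and 60.7, 71.1, 76.9, 83.8 and 82.3 CPM at 6 °C. Its groups did not overlap either, and it rose by 0.59 ± 0.11 (1.51-fold, adjusted p = 0.0012). For all 6 ATPases the cold libraries lay above the warm ones without overlap; over all genes 13% were higher in the cold without overlap. Under total-count scaling 5 of the 6 rose and all 6 stayed positive, and Psmc3, whose exons share 215 bases with Slc39a13 on the opposite strand, did not pass; its call was lost in 14 of 32 alternatives.

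Of the 11 other subunits of the cap, 9 rose and the remaining 2, Psmd3 (0.22 ± 0.15) and Psmd8 (0.23 ± 0.10), did not pass. Psmd12 and Psmd11 are lid scaffold subunits. Psmd12 had 54.1, 60.1, 51.4 and 47.7 CPM at 22 °C and 84.1, 88.2, 98.4, 77.9 and 77.6 CPM at 6 °C. The cold libraries were all higher, and Psmd12 rose by 0.69 ± 0.12 (1.61-fold, adjusted p = 0.000659). Psmd11 had 43.9, 65.5, 54.2 and 52.8 CPM at 22 °C and 80.1, 86.5, 88.0, 81.6 and 86.9 CPM at 6 °C. It too was higher in every cold library, and rose by 0.66 ± 0.10 (1.58-fold, adjusted p = 0.000173). The ubiquitin receptor Psmd4 (0.52 ± 0.10), the base scaffolds Psmd1 (0.45 ± 0.11) and Psmd2 (0.44 ± 0.12) and the deubiquitinase of the lid, Psmd14 (0.41 ± 0.12), rose as well, as did Psmd6 (0.54 ± 0.09), Psmd7 (0.58 ± 0.09) and Psmd13 (0.39 ± 0.08). Under total-count scaling all 11 stayed positive and 4 passed. Psmd13, whose exons share 342 bases (10.1%) with Sirt3 on the opposite strand, was not among the 4. Its call was lost in 4 of 32 alternatives.

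In the 20S core, 4 of the 7 alpha subunits rose and none of the 7 standard beta subunits passed the test. Psma1 had 59.3, 77.4, 69.9 and 70.4 CPM at 22 °C and 108, 126, 119, 95.0 and 110.2 CPM at 6 °C. All cold libraries lay above the others, and Psma1 rose by 0.70 ± 0.11 (1.62-fold, adjusted p = 0.000232). Psma5 had 9.93, 13.3, 12.1 and 10.6 CPM at 22 °C and 13.9, 17.8, 16.6, 15.5 and 14.6 CPM at 6 °C. Its groups were separate, and it rose by 0.46 ± 0.12 (1.38-fold, adjusted p = 0.0114). Psma6 (0.40 ± 0.12) and Psma7 (0.24 ± 0.08) rose too, the call of Psma7 being lost in 18 of 32 alternatives, and Psma2, Psma3 and Psma4 lay from 0.26 to 0.36 without passing. Under total-count scaling all 7 alpha values stayed positive and Psma1 alone passed.

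The standard beta subunits, which include the cutting subunits Psmb5, Psmb6 and Psmb7, had log2 values from 0.04 to 0.26. All 7 were positive after TMM scaling, but 4 of 7 after total-count scaling. Psmb2, the most abundant of them, had 46.4, 54.1, 55.6 and 53.5 CPM at 22 °C and 61.2, 62.7, 62.9, 61.0 and 64.8 CPM at 6 °C. The cold libraries were all higher, and its log2 value was 0.26 ± 0.10 (1.20-fold, adjusted p = 0.0638). In the beta ring 2 of 7 had an unadjusted p below 0.05 in edgeR, DESeq2 called 2 rises and limma-trend on RPKM called none. The difference between the alpha and beta rings was not tested.

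**Figure D2:**
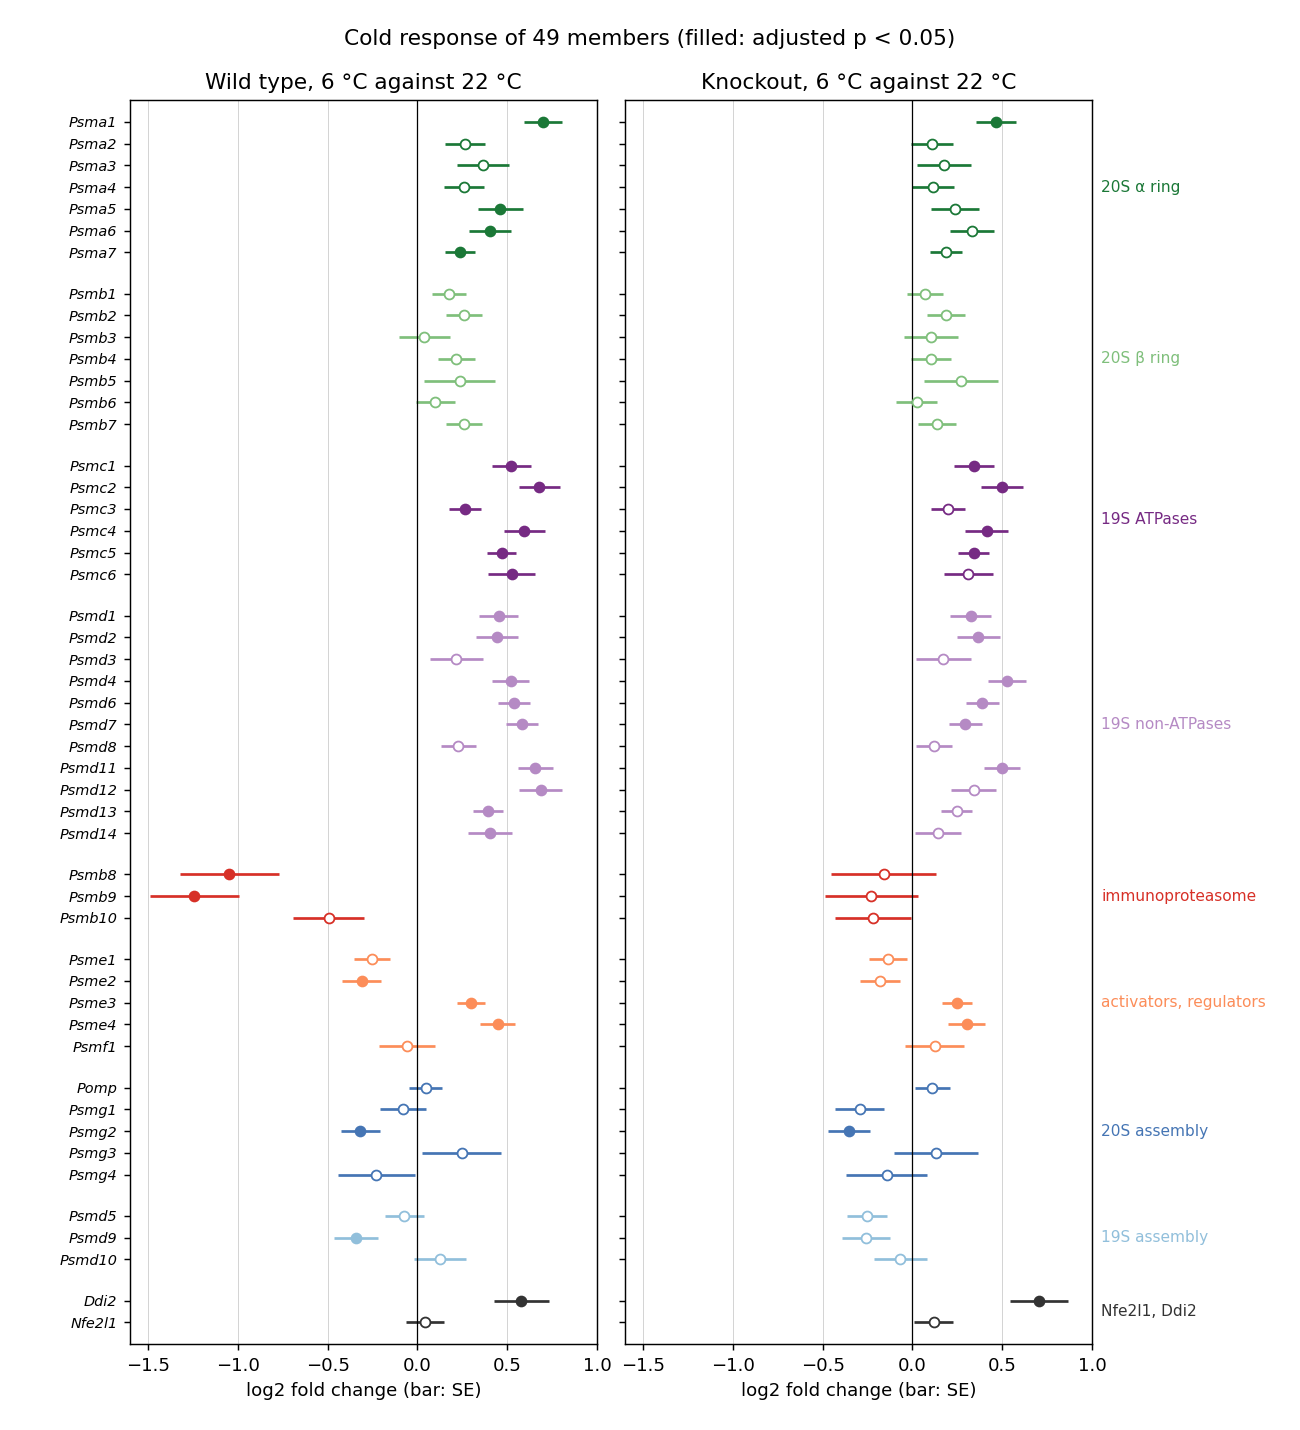
Cold log2 fold change (6 °C against 22 °C, bar: SE) of the 49 genes by role in wild types (left, 4 and 5 mice) and knockouts (right, 4 and 4 mice); filled points passed an adjusted p of 0.05. In wild types the 6 ATPases and 9 of 11 other cap subunits are filled to the right of 0, and Psmb8 and Psmb9 are filled to the left.

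The immunoproteasome subunits went the other way in wild types. Psmb9, which replaces Psmb6, had 2.71, 2.13, 2.03 and 2.66 CPM at 22 °C and 0.737, 0.930, 0.699, 1.20 and 1.39 CPM at 6 °C. All cold libraries lay below the others, and Psmb9 changed by -1.24 ± 0.25 (0.42-fold, adjusted p = 0.00152). Psmb8, which replaces Psmb5, had 5.02, 4.44, 3.99 and 5.16 CPM at 22 °C and 2.10, 1.704, 1.36, 2.37 and 3.76 CPM at 6 °C. The groups were again separate, with wild-type 6 °C replicate 5 closest to the warm animals, and Psmb8 changed by -1.05 ± 0.27 (0.48-fold, adjusted p = 0.00933). Over all genes 12.8% were lower in the cold without overlap. Psmb10, which replaces Psmb7, had 3.09, 3.31, 3.87 and 3.84 CPM at 22 °C and 2.15, 1.86, 2.06, 3.38 and 3.12 CPM at 6 °C. The groups overlapped, and Psmb10 did not pass (-0.49 ± 0.20, adjusted p = 0.0701), though it did under total-count scaling, in both fits to RPKM and without wild-type 6 °C replicate 4. The calls of Psmb8 and Psmb9 were lost in the test against a fold of 1.5 and in no other of the 32 alternatives.

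Of the list of interferon-responsive and antigen-presenting genes, none of 15 rose and 5 fell in the same libraries (14.3 and 13.3% of all genes). They were Tap1 (-1.48 ± 0.33, adjusted p = 0.00351) and Tap2 (-0.90 ± 0.20, adjusted p = 0.00386), which carry the peptides made by the proteasome into the endoplasmic reticulum, the activator of class I genes Nlrc5 (-0.77 ± 0.23), the transcription factor Irf1 (-0.62 ± 0.16), and Gbp2 (-0.49 ± 0.17). The class I chain partner B2m (-0.08 ± 0.14) and the class I genes H2_K1 (-0.23 ± 0.16) and H2_D1 (-0.22 ± 0.18) did not pass. Of the 15, 4 were positive, with log2 values from -1.48 to 0.48 (median -0.23), and 2 were lower without overlap. The summed level of the list was 600.4 to 858 CPM at 22 °C and 529.7 to 814 CPM at 6 °C. Of the 14 macrophage and leukocyte markers, 11 could be tested and 1 rose (Cd163), none fell, and their sum was 79.9 to 121 CPM at 22 °C and 69.9 to 105 CPM at 6 °C. Of the 11, 4 were positive, with log2 values from -1.51 to 1.04 (median -0.17), and 3 had an unadjusted p below 0.05 in edgeR. Of the lymphocyte markers in the list, Cd79a, Ms4a1 and Cd8a were too low to test, while Cd3e and Cd4 were tested. No marker of the list was at 0 in every library. The part of leukocyte number in the fall of Psmb8 and Psmb9 was not tested, and in bulk tissue fewer cells of a type and less RNA per cell cannot be told apart. Psmb9 and Tap1 share 212 exonic bases on opposite strands, which is 5.79% of the Psmb9 exons, and no source used here gives the strand setting of the counting.

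**Figure D3:**
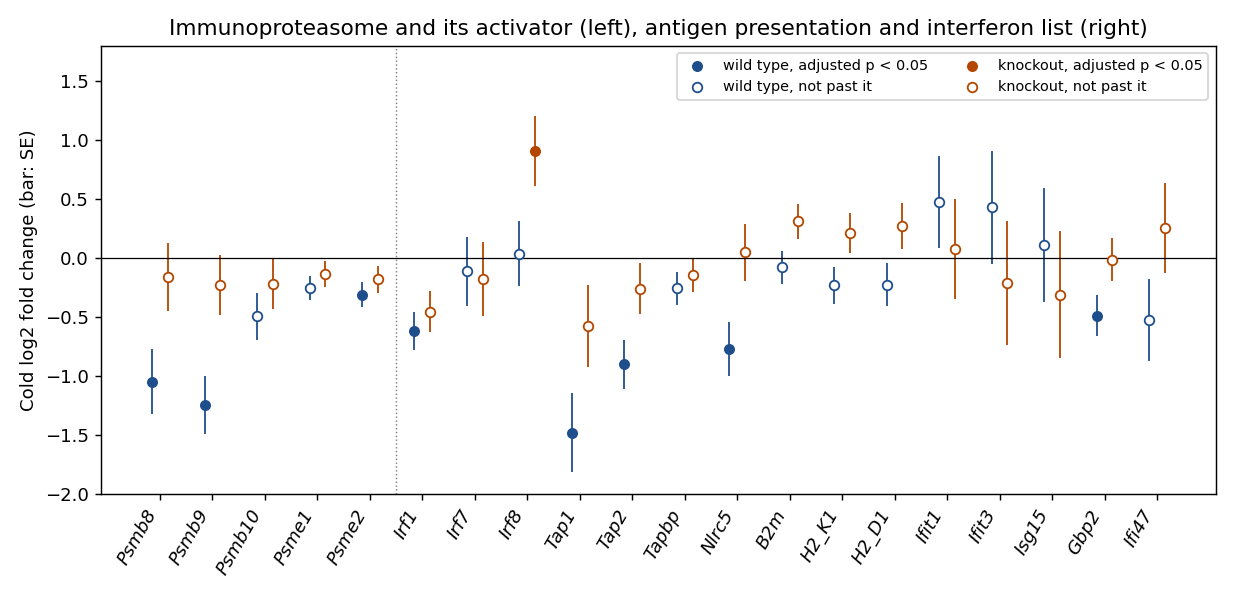
Cold log2 fold change (bar: SE) of the immunoproteasome genes and of Psme1 and Psme2 (left of the dotted line) and of the 15 genes of the interferon and antigen-presentation list (right) in wild types and knockouts; filled points passed an adjusted p of 0.05. In wild types Psmb8, Psmb9, Psme2 and 5 of the 15 are filled and lie below 0, and in knockouts Irf8 is filled.

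The activators that open the core from its ends split. Psme4, the large activator PA200, had 102, 124, 116 and 102 CPM at 22 °C and 143, 152, 161, 145 and 149.8 CPM at 6 °C. The groups were separate, and Psme4 rose by 0.45 ± 0.10 (1.36-fold, adjusted p = 0.0029). The nuclear activator subunit Psme3 rose by 0.30 ± 0.08 (adjusted p = 0.00874). Its call was lost in 4 of 32 alternatives, among them total-count scaling (0.10 ± 0.09, adjusted p = 0.40). Psme2, a subunit of the interferon-inducible activator, had 31.4, 27.4, 32.5 and 33.2 CPM at 22 °C and 24.5, 23.2, 25.4, 24.5 and 28.03 CPM at 6 °C. Wild-type 22 °C replicate 2 lay within the cold range, and Psme2 changed by -0.31 ± 0.11 (0.81-fold, adjusted p = 0.0395), a call lost in 14 of 32 alternatives. Its partner Psme1 had -0.25 ± 0.10 (adjusted p = 0.0703), and the inhibitor Psmf1 had -0.06 ± 0.16.

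Of the 5 assembly chaperones for the core, none rose and Psmg2 fell. Psmg2 had 5.93, 5.19, 5.23 and 5.62 CPM at 22 °C and 4.70, 4.00, 4.19, 4.62 and 4.57 CPM at 6 °C. The groups were separate, and Psmg2 changed by -0.32 ± 0.11 (0.80-fold, adjusted p = 0.0399), a call lost in 17 of 32 alternatives. Pomp, the maturation factor, had 24.7, 24.9, 22.6 and 25.1 CPM at 22 °C and 24.7, 25.7, 24.6, 25.1 and 25.4 CPM at 6 °C. The groups overlapped, and its log2 value was 0.05 ± 0.09 (adjusted p = 0.755), or -0.16 under total-count scaling. Psmg1 (-0.08 ± 0.13), Psmg3 (0.25 ± 0.22) and Psmg4 (-0.23 ± 0.21) did not pass.

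Of the 3 chaperones for the cap, Psmd9 fell at the edge of the threshold. It had 6.31, 6.75, 7.47 and 8.80 CPM at 22 °C and 5.55, 4.80, 5.94, 6.34 and 6.48 CPM at 6 °C. The groups overlapped, and the change was -0.34 ± 0.12 (0.79-fold, adjusted p = 0.0499), lost in 25 of 32 alternatives. Psmd5 (-0.07 ± 0.11) and Psmd10 (0.13 ± 0.14) did not pass.

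The mRNA of Nfe2l1, the activator of the subunit genes, did not pass the test. It had 306, 325, 324 and 291 CPM at 22 °C and 329.5, 325, 301, 330.3 and 320.5 CPM at 6 °C. The groups overlapped, and its log2 value was 0.04 ± 0.10 (1.03-fold, adjusted p = 0.806), or -0.16 under total-count scaling. Ddi2, its protease, had 39.4, 48.6, 43.2 and 39.0 CPM at 22 °C and 74.8, 58.6, 76.8, 44.0 and 63.1 CPM at 6 °C. Wild-type 6 °C replicate 4 lay among the warm animals, and Ddi2 rose by 0.58 ± 0.15 (1.49-fold, adjusted p = 0.0101). This call was lost in 4 of 32 alternatives: total-count scaling (0.37 ± 0.16, adjusted p = 0.086), both fits to RPKM and the test against a fold of 1.5.

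**Figure D4:**
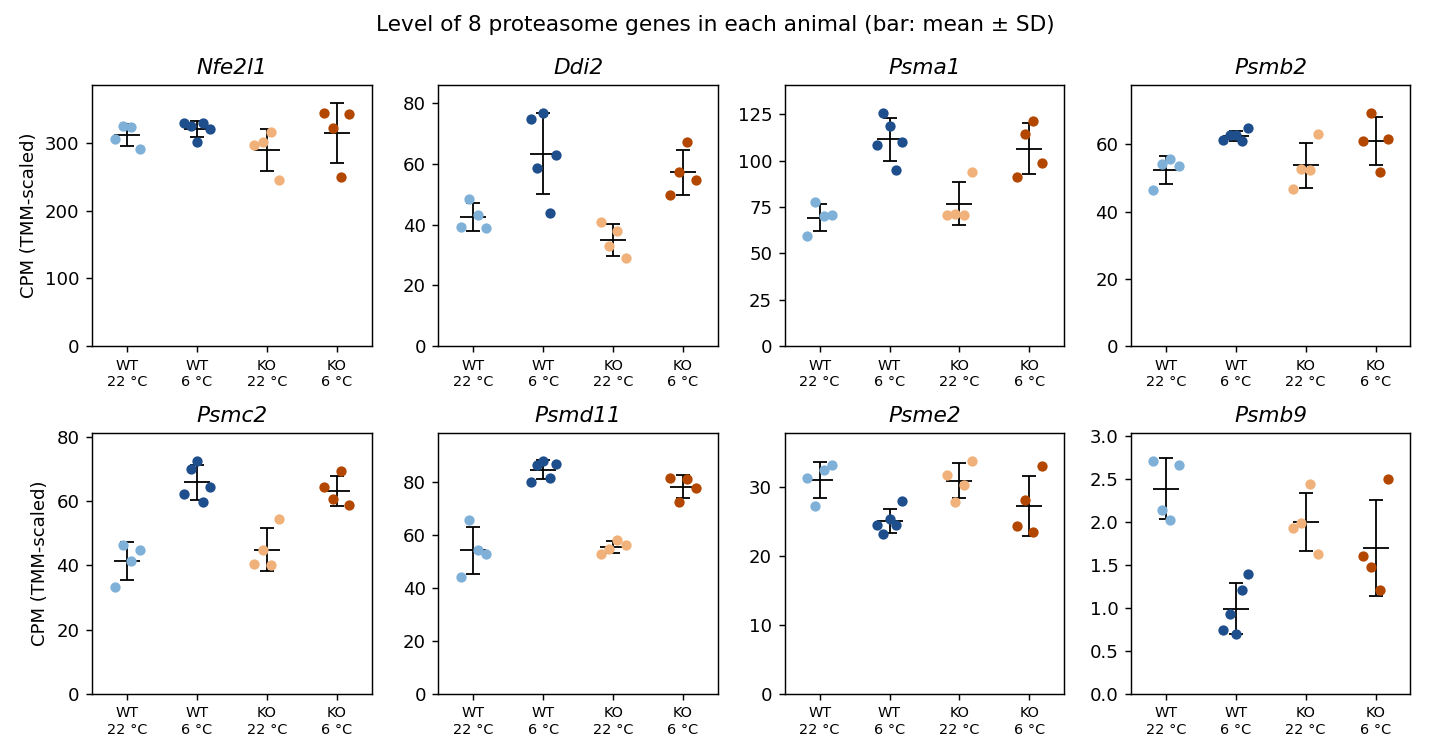
CPM after TMM scaling of 8 of the genes in each of the 17 mice, by genotype (WT, KO) and temperature; bars are means ± SD. Psma1, Psmb2, Psmc2 and Psmd11 are higher and Psmb9 lower in every wild type at 6 °C than in any at 22 °C, and Nfe2l1 overlaps.

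Other genes of the pathway were taken from a list of 43, of which 42 were in the table and 40 were tested. In wild types 15 rose and 1 fell, against 14.3 and 13.3% of all genes. Among proteins that bind the proteasome or bring substrates to it, 9 of 15 rose: Txnl1 (0.82 ± 0.12), a thioredoxin of the cap, the shuttle factors Rad23b (0.62 ± 0.09) and Ubqln1 (0.54 ± 0.09), the deubiquitinase Usp14 (0.61 ± 0.12), the receptor Adrm1 (0.50 ± 0.18), Zfand5, Zfand2a, Ube3c and AI314180. Among genes that process Nfe2l1 or turn it over, Nploc4 (0.79 ± 0.12) and Vcp (0.30 ± 0.09), partners in pulling proteins out of membranes, rose and the ubiquitin ligase subunit Btrc fell (-0.64 ± 0.15). The small Maf partners of the Nfe2l1 protein rose: Maff from 2.75 to 13.9 CPM (2.35 ± 0.35), Mafk (0.93 ± 0.13) and Mafg (0.79 ± 0.15), as did the NF-Y subunit Nfyc (0.41 ± 0.14). The related factor Nfe2l2 did not pass (0.34 ± 0.17). None of the 4 ubiquitin genes passed in edgeR, where 1 had an unadjusted p below 0.05, and DESeq2 called 1 rise.

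In knockouts, 14 of the 49 rose and 1 fell; of all tested genes 21.6% passed, 11.6% rising and 10.0% falling. The median log2 fold change was 0.17 over the 49 and -0.02 over all genes, and 38 were positive. Under total-count scaling 8 rose and 2 fell (80.0% of the calls were rises against 93.3%), with medians of 0.10 and -0.09. The count depended on single libraries: it was 8 without knockout 22 °C replicate 1, 7 without replicate 2, 8 without replicate 3 and 8 without knockout 6 °C replicate 1. Of the counts outside the mitochondrial genome, the 49 took 0.434 to 0.467% at 22 °C and 0.475 to 0.511% at 6 °C, without overlap. Of all counts they took 0.199 to 0.221% and 0.204 to 0.258%, with overlap.

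By role, 1 of 7 alpha subunits, no beta subunit, 4 of 6 ATPases and 6 of 11 other cap subunits rose in knockouts. In the beta ring none had an unadjusted p below 0.05, in edgeR, DESeq2 or limma-trend. Psmc2 had 40.3, 44.7, 40.1 and 54.5 CPM at 22 °C and 64.4, 60.8, 69.3 and 58.7 CPM at 6 °C. The groups were separate, and it rose by 0.50 ± 0.12 (1.41-fold, adjusted p = 0.00624). Psmd11 had 52.9, 54.6, 58.2 and 56.2 CPM at 22 °C and 81.5, 72.5, 81.3 and 77.6 CPM at 6 °C. It too was higher in every cold library and rose by 0.50 ± 0.10 (1.41-fold, adjusted p = 0.00225). Over the 49, 11 were higher and 2 lower without overlap, against 10.8 and 9.43% of all genes.

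Psma1 had 70.8, 71.5, 70.9 and 94.1 CPM at 22 °C and 91.2, 115, 121 and 98.9 CPM at 6 °C. Knockout 22 °C replicate 4 lay within the cold range, and Psma1 rose by 0.47 ± 0.11 (1.38-fold, adjusted p = 0.00667). Psmd12 had 58.8, 61.3, 55.5 and 82.5 CPM at 22 °C and 78.9, 84.8, 92.2 and 70.5 CPM at 6 °C. The same warm library stood high, and Psmd12 did not pass (0.34 ± 0.13, adjusted p = 0.0624), though it did in 7 alternatives, among them the fit without that library (0.47, adjusted p = 0.0099), DESeq2 and total-count scaling. The other cap subunits that rose were Psmd1, Psmd2, Psmd4, Psmd6 and Psmd7, the ATPases Psmc1, Psmc4 and Psmc5, and the activators Psme3 (0.25 ± 0.08) and Psme4 (0.30 ± 0.10). Of these calls, that of Psmd4 was lost in 1 of 32 alternatives, Psmd6 in 3, Psmc5 in 4 and Psmc4 in 9. Those of Psmc1 (12), Psmd7 (14), Psme4 (15), Psme3 (16), Psmd1 (17) and Psmd2 (17) were lost in more of the 32.

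Psmb9 had 1.92, 1.99, 2.44 and 1.62 CPM in knockouts at 22 °C and 1.60, 1.47, 1.21 and 2.49 CPM at 6 °C. The groups overlapped, and the change was -0.23 ± 0.26 (adjusted p = 0.593). Psmb8 had 4.94, 3.98, 3.09 and 2.83 CPM at 22 °C and 2.54, 4.68, 1.98 and 3.91 CPM at 6 °C. These groups overlapped too, and the value was -0.16 ± 0.29 (adjusted p = 0.765). Psmb10 (-0.22 ± 0.21) did not pass. Of the interferon and antigen-presentation list none fell and Irf8 rose, and its sum was 623 to 639 CPM at 22 °C and 656 to 765 CPM at 6 °C. Of the 11 macrophage and leukocyte markers 10 were positive (median 0.34), 1 rose (Cd163) and none fell, and the list summed to 75.1 to 83.7 CPM at 22 °C and 77.3 to 148 CPM at 6 °C.

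Psmg2 had 5.51, 6.25, 6.07 and 6.79 CPM at 22 °C and 4.95, 4.45, 5.13 and 4.73 CPM at 6 °C, and was the gene that fell in knockouts (-0.36 ± 0.12, adjusted p = 0.0373), without overlap, a call lost in 20 of 32 alternatives. Ddi2 had 40.8, 32.9, 37.8 and 28.9 CPM at 22 °C and 49.9, 57.2, 67.2 and 54.7 CPM at 6 °C. Its groups were separate, and it rose by 0.70 ± 0.16 (1.63-fold, adjusted p = 0.00495). Nfe2l1 had 297, 302, 316 and 245 CPM at 22 °C and 345, 323, 249 and 343 CPM at 6 °C, with overlap and a value of 0.12 ± 0.11 (adjusted p = 0.502). Of the 40 other pathway genes tested, 9 rose and 2 fell, against 11.6 and 10.0% of all genes. Among those that rose were Maff (2.38 ± 0.36), Mafk (1.06 ± 0.14), Mafg (0.91 ± 0.16), Nploc4 (0.78 ± 0.13), Txnl1 (0.60 ± 0.13) and Rad23b (0.58 ± 0.10). Btrc (-0.53 ± 0.16) and Nfyb (-0.56 ± 0.18) were the ones that fell.

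The cold responses of both genotypes, which share no library, were set side by side. Of the 49 genes, 47 had the same sign in both, with a Pearson correlation of 0.84 and a Spearman correlation of 0.93 across genes. Genes are not independent replicates. The same measures, and the count of smaller fold changes below, were not computed over all genes. These values therefore cannot show whether the likeness is particular to this set. All 14 genes that rose in knockouts also rose in wild types, and Psmg2, whose call was lost in 17 of 32 alternatives in wild types and in 20 of 32 in knockouts, fell in both. The fold change was smaller in size in knockouts for 39 of the 49 after TMM scaling and for 30 after total-count scaling, under which 44 had the same sign. The median of the difference between the responses turned from -0.11 (14 of 49 positive) to 0.04 (30 of 49 positive) under total-count scaling, with all genes moving to 0.13, and was 0.02 in both fits to RPKM (29 positive).

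**Figure D5:**
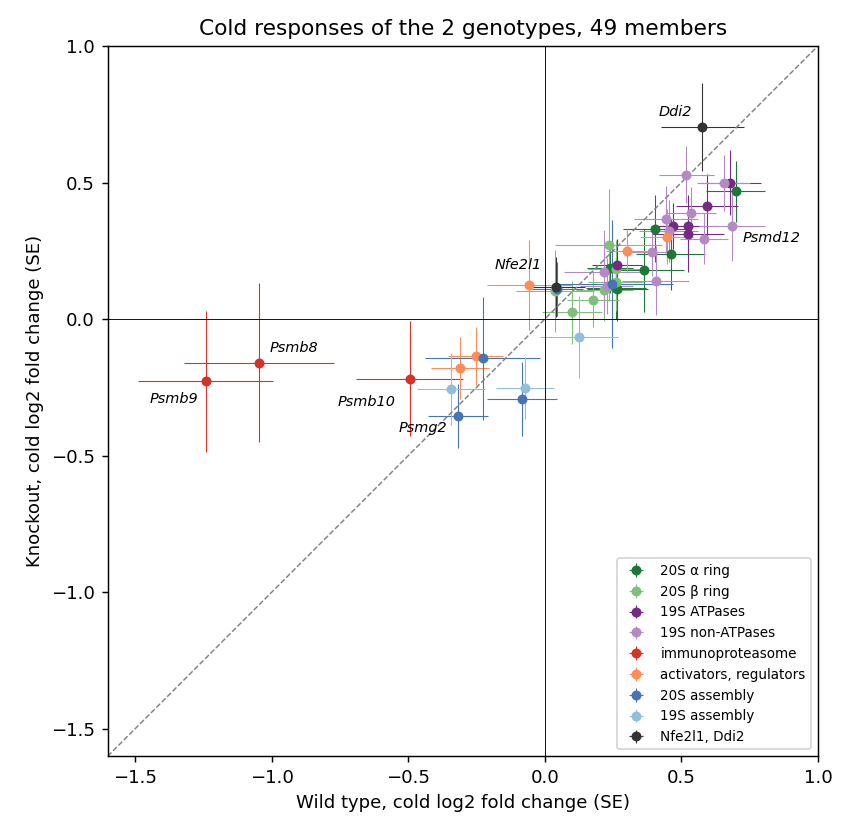
Cold log2 fold change of the 49 genes in wild types (x axis) and knockouts (y axis), with SE bars, coloured by role; the dashed line marks equal responses. The core and cap subunits lie near the line and, after TMM scaling, mostly below it (the median difference turns positive under total-count scaling), while Psmb8 and Psmb9 lie far to the left of 0 in wild types and near 0 in knockouts.

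The test of the difference between the responses found no member past the threshold (0.00801% of all genes passed); in edgeR 3 members, Psmb9, Psmd7 and Psmb8, had an unadjusted p below 0.05, DESeq2 also called none and had 3, and limma-trend on RPKM called none. For Psmb9 the knockout response exceeded the wild-type one by 1.01 ± 0.36 log2 (95% interval 0.24 to 1.79, adjusted p = 1), and for Psmb8 by 0.89 ± 0.40 (0.01 to 1.76, adjusted p = 1). In the same comparison 10 of 11 macrophage and leukocyte markers were positive (median 0.52) and 11 of 15 genes of the interferon list (median 0.44), with none called in edgeR and 1 and 3 at an unadjusted p below 0.05. Their part in the difference was not tested. Psmd7 had -0.29 ± 0.13 (-0.56 to -0.01), Psmd12 -0.35 ± 0.17 (-0.72 to 0.03) and Psma1 -0.23 ± 0.15 (-0.57 to 0.11). For Nfe2l1 the interval was -0.25 to 0.41, and for Ddi2 -0.36 to 0.61. The fall of Psmb8 and Psmb9 in wild types is therefore not shown to differ from the knockouts after adjustment over all genes.

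Between genotypes at a given temperature no member passed either. At 22 °C (0.016% of all genes passed) the members ran from -0.28 (Ddi2) to 0.24 (Psmd14), with a median of 0.03 (33 of 49 positive) that turned to -0.11 (4 of 49 positive) under total-count scaling, where the median of all genes was -0.15, and to -0.11 in both fits to RPKM. None had an unadjusted p below 0.05 in edgeR or DESeq2. No member's genotypes were free of overlap at 22 °C, where 2.29% of all genes were higher and 1.93% lower in knockouts without overlap. At 6 °C (0.04% of all genes passed, 0.032% being lower in knockouts) they ran from -0.21 (Psma5) to 0.78 (Psmb9), with a median of -0.05, and 1 had an unadjusted p below 0.05 in edgeR and 3 in DESeq2. Psmb9 was 0.78 ± 0.28 higher in knockouts at 6 °C and Psmb8 0.65 ± 0.32, both with an adjusted p of 1. Psmd7 was the single member whose genotypes did not overlap at 6 °C, being lower in knockouts, against 0.585% of all genes.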

How the data were processed

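Messenger RNA of brown fat was sequenced from 17 mice, and replicates are different animals. The tools named in the submitters' processing notes are STAR and HTSeq, and the builds are mm10 and GRCm38.p6; their versions, the annotation and the strand setting are not given in the sources used here. The authors deposited unnormalized read counts by gene symbol. The authors also deposited RPKM values, which equal those counts scaled to gene length and total count, to a relative spread of at most 1.26e-14. No column was left unassigned.

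The counts entered edgeR 4.0.16 (under R 4.3.3) with the 12486 genes that filterByExpr kept, TMM scaling, and a single quasi-likelihood model in which the 17 libraries had group means plus labelled sex (2 of 9 wild types and 6 of 8 knockouts were male), leaving 12 residual degrees of freedom. P values were adjusted by Benjamini-Hochberg over all tested genes at a threshold of 0.05. Log2 fold changes are given ± SE. Group levels are CPM. Reads carry no molecular identifiers, so precision from depth covers counting error only. "Rose" and "fell" mean past the threshold, and "without overlap" that every library of a group exceeds every library of the other.

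The members and the gene lists were chosen with earlier results of these data known. By the rule for named genes, values in every animal are given for Nfe2l1, Ddi2, Pomp, Psmb8, Psmb9, Psmb10 and, in each role, up to 2 members with the largest passing change in wild types, or the highest level where none passed. Psmd7, Psmc3 and the overlapping genes were named after their values were seen. Alternatives were DESeq2 1.42.0, limma 3.58.1 (trend) on log2(RPKM + 1) and log2(RPKM + 0.1), other scalings, filters, covariates and samples, a replicate block, a fold of 1.5 and leaving out each library. The labels do not say that replicate numbers link animals. No libraries of the same group were duplicates, and the check for duplicates did not compare libraries of different groups. The procedure was tested on simulated data. Gene positions and overlaps came from GENCODE on GRCm38. A further gene of the interferon and antigen-presentation list is not reported here. Promoters came from RefSeq (GRCm38.p6), and windows of 300 bases were searched on both strands.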

Additional observations from a re-analysis of the deposited data

Results flagged for a closer look

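The 17 genes picked by the rule for named genes were checked, in 68 groups of 4 or 5 animals. A single animal stood far from the others of its group for 2 genes, and chance flags about 1 in 20 groups. The other members were not checked. Psma1 had 94.1 CPM in knockout 22 °C replicate 4 against 70.8 to 71.5 CPM in the other 3 animals. Pomp had 22.6 CPM in wild-type 22 °C replicate 3 against 24.7 to 25.1 CPM in the others. Knockout 22 °C replicate 4 was also the highest of its group for Psma2 (45.3 against 31.1 to 33.3 CPM) and Psmc1 (67.2 against 50.1 to 52.1 CPM). It was the lowest for Nfe2l1 (245 against 297 to 316 CPM) and Psmd3 (37.5 against 48.9 to 56.4 CPM). Mitochondrial genes took 57.3% of its counts, the highest share of any library. Without that library 17 members rose in knockouts.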

How the results depend on the processing

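Tested against a fold of 1.5, 0 members passed in wild types and 0 in knockouts. In wild types the other alternatives gave 19 to 32 calls, with 21 to 32 when single libraries were left out. In knockouts 15 calls became 8 with no filter, 4 with only the groups compared and 4 in the majority sex, and ran from 7 to 17 when single libraries were left out. The counts of 0 for the genotype differences and for the difference between responses were 0 in every alternative. With replicate number as a block the knockout count was 8 with sex and 8 without, and the wild-type count 23 and 24. The correlations of same-numbered samples ran from -0.42 to 0.44. Differently numbered samples were not compared, so these values cannot decide whether the numbers pair animals. In wild types, Nfe2l1 was -0.16 under total-count scaling and -0.16 in both fits to RPKM, and Pomp was -0.16 under total-count scaling, -0.13 on RPKM + 1 and -0.16 on RPKM + 0.1. In knockouts, Psmb8 was 0.10 in the majority sex, 0.006 without knockout 22 °C replicate 1, 0.062 without knockout 6 °C replicate 1 and 0.0011 without replicate 3, with -0.38 without replicate 2 as the lowest value. On the strand of the gene alone, TGACNNNGC was present in 3 of the matched members and CCAAT in 11. The cause of these shifts was not tested. With 4 or 5 animals per group, small differences between genotypes were not detectable.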
